A study of Mus musculus with 15 samples.

Results

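Promoters of protein-coding genes that carried an H3K4me3 island in 5 to 10 of 15 mouse liver libraries are described here. Islands of all 15 lists were merged where they overlapped or touched, which gave 74158 merged regions, and 12566 of these lay within 1 kb of a transcription start site (TSS) of a protein-coding gene. Of the latter, 3646 held an island in 5 to 10 lists and an island of at least 4000 bp in fewer than 5 lists, and these are the member regions. The members were chosen by the presence of islands in the lists, so every count of lists, libraries or diets below is a description of the choice and carries no test. The livers came from 15 C57BL/6 females (C57BL/6J in the study's methods) that entered the study at 3 months of age and were fed for 10 months, although their labelled age is 12 months. There were 3 mice on each diet: standard diet ad libitum (SD), calorie restriction on the standard diet (CR), high-fat diet ad libitum (HF), and diets in which yellow corn (YD) or purple corn rich in anthocyanins (RD) replaced the maize of the standard diet, both ad libitum. The 15 mice came from 6 litters, and which mice were littermates is not given in the sources used here. Each mouse gave 1 library, prepared by PAT-ChIP, an immunoprecipitation from sections of formalin-fixed, paraffin-embedded tissue.

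Trimethylation of histone H3 at lysine 4 (H3K4me3) is placed on the nucleosomes around the start sites of active and poised genes by SET1 and MLL methyltransferase complexes and is removed by KDM5 demethylases. CpG-rich promoters attract these complexes through CXXC-domain proteins that bind unmethylated CpG, so that most CpG island promoters carry the mark in most tissues, whereas CpG-poor promoters tend to carry it where their gene is transcribed. An island is a run of 200-bp windows with more reads than a Poisson background gives. A missing island states that the run did not pass the caller's threshold in that library, not that the mark was absent, and in bulk liver fewer marked cells and less mark per cell cannot be told apart.

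Promoter sequences are shown first for the members that mark the cell types of the liver and for the members with the highest and the lowest CpG ratio among the gene lists written by gene name, because the CpG content of the members is one of the few properties that the rule did not use. The sequences are RefSeq promoters on GRCm38.p6, the assembly behind mm10, from 250 bases before to 50 after the RefSeq start, written 5′ to 3′ with CpG dinucleotides in capitals. The highest ratio among these list genes, in the 1000 bases around the TSS, is that of Kdm1a, which encodes a histone H3 lysine 4 demethylase, and the lowest is that of Cyp3a13, a liver cytochrome P450. Pck1 encodes the cytosolic PEP carboxykinase of gluconeogenesis, Alb encodes albumin, Mrc1 the mannose receptor of macrophages and sinusoidal endothelium, Egfl7 a secreted endothelial factor and Nt5e the surface enzyme CD73. No promoter is shown for Usp18.
Kdm1a: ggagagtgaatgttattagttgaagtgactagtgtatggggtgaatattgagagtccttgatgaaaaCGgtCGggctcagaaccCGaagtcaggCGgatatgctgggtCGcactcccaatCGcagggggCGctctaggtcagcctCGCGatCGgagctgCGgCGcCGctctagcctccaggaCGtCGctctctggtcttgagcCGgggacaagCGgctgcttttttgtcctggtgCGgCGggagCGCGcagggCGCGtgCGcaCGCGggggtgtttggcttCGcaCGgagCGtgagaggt
Nt5e: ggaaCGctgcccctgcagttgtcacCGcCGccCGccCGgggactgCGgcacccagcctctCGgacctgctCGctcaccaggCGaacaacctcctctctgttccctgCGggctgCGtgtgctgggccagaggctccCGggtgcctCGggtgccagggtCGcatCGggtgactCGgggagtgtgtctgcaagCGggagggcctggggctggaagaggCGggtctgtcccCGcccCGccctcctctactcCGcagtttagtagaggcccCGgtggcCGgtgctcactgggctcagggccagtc
Egfl7: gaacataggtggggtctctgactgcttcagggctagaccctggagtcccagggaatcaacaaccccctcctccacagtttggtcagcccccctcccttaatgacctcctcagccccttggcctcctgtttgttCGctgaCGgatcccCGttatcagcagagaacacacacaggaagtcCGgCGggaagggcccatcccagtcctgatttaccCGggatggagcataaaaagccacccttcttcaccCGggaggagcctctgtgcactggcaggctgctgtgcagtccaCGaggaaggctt
Pck1: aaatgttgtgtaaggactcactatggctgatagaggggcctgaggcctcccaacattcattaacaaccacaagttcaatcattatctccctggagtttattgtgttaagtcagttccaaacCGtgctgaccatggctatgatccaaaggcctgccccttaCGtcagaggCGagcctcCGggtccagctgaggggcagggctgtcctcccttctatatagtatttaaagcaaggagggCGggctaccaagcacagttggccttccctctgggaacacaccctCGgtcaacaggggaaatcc
Mrc1: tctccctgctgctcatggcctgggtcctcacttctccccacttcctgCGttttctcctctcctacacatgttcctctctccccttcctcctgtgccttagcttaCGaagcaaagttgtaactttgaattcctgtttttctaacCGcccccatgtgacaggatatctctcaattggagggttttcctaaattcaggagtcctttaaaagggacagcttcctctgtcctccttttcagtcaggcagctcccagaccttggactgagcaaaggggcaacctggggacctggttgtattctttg
Alb: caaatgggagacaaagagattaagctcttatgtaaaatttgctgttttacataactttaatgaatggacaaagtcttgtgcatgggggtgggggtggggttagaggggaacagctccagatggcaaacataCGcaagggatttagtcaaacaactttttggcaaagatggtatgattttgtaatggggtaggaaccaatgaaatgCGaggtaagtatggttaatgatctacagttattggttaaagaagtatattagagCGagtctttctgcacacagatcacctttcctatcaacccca
Cyp3a13: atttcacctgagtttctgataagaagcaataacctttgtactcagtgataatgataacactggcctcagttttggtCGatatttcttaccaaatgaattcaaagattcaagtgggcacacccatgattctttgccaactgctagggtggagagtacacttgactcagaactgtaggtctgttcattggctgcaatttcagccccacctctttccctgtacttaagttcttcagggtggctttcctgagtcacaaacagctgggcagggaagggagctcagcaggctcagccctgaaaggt
The Kdm1a promoter held 29 CpG in 300 bases and an observed to expected CpG ratio of 1.08 (chr4:136602674-136602973, minus strand). Its RefSeq start lies 415 bp from the GENCODE TSS that most islands covered. The Nt5e promoter held 23 CpG with a ratio of 0.608 (chr9:88327359-88327658, plus strand). The Egfl7 promoter held 8 CpG (chr2:26583615-26583914, plus), Pck1 held 6 (chr2:173152823-173153122, plus) and Mrc1 held 3 (chr2:14229164-14229463, plus). The Alb promoter also held 3 (chr5:90460620-90460919, plus), and its RefSeq start lies 1449 bp from the GENCODE TSS that most islands of the region covered. The Cyp3a13 promoter held a single CpG, for a ratio of 0.0639 (chr5:137921570-137921869, minus). All 7 promoters belong to members with an island in 8 to 10 lists, so promoters marked in similar numbers of livers ranged from CpG-dense to nearly free of CpG.

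The lists held between 7825 and 33752 islands, and the reads behind them, recovered from the scores of single-window islands, ranged from 5589269 to 15449854. YD mouse 1 had the most reads of all libraries, the shortest list, and an island at 8.12% of the members. Over the 15 libraries, members with an island and list length had a Spearman coefficient of 0.639. The Pearson coefficient was 0.482, and member islands are part of each list. For reads the Spearman coefficient was 0.214, and 0.610 without YD mouse 1 and RD mouse 2. Presence chose the members, so these coefficients are a description and carry no test.

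Members were marked mostly in the HF, CR and SD livers and seldom in the corn livers. The 3 HF libraries held an island at 98.5%, 89.1% and 94.0% of the 3646 members, with a mean of 93.9% ± 4.71 (SD, n = 3). The 3 CR libraries held 41.7%, 84.5% and 88.6%, with a mean of 71.6% ± 26.0 (n = 3). The SD libraries held 69.8%, 69.5% and 31.2%, with a mean of 56.8% ± 22.2 (n = 3). CR mouse 1 and SD mouse 3 thus lay far below the other mice of their diets. These libraries also had the fewest reads of all, 5589269 and 6541539, and the part of depth in their shares was not tested. The RD libraries held 27.3%, 29.6% and 18.8%, with a mean of 25.3% ± 5.69 (n = 3), and the YD libraries held 8.12%, 14.6% and 7.30%, with a mean of 9.99% ± 3.98 (n = 3). The ranges of the HF, RD and YD libraries did not overlap one another, while those of SD and CR overlapped. This separation was not particular to the members. At the coding promoters in 11 to 14 lists the HF libraries held 98.7% to 99.9%, the RD libraries 71.6% to 89.1% and the YD libraries 32.8% to 68.8%. With the 7825 highest-scoring islands of every list and the members chosen anew, the means were 81.0% for HF, 64.0% for CR, 57.9% for SD, 26.7% for YD and 25.5% for RD, so that RD no longer lay above YD. An island in all 3 HF mice was present at 84.0% of the members, no island in any YD mouse at 73.3%, and no island in any of the 6 corn libraries at 33.6%. Only 7 members had no island in any HF mouse.

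**Figure D1:**
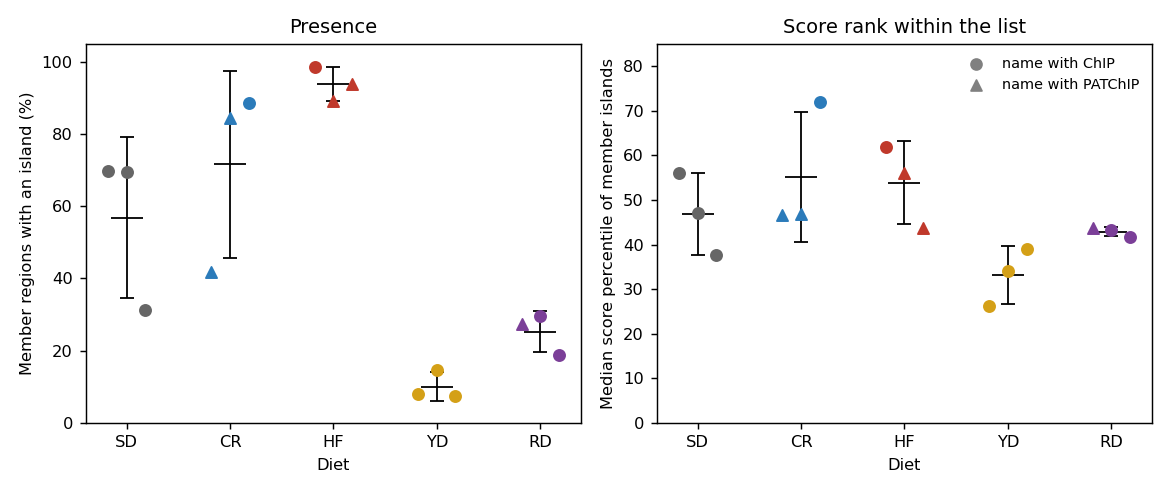
Left, share of the 3646 member regions with an island (percent), and right, median percentile of the scores of member islands among all islands of the list, each point 1 library and each bar the mean ± SD of 3 mice per diet, with circles and triangles for the 2 forms of library name. HF libraries sit between 89.1% and 98.5% on the left and YD libraries between 7.30% and 14.6%, while on the right the diets overlap more, with YD between 26.2 and 39.1.

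The islands of many members fell mostly on the first libraries of a common order. The order was taken from the coding promoters in 11 to 14 lists, which are not members, and ran from HF mouse 1 (99.9% of them), CR mouse 3, HF mouse 2, CR mouse 2, HF mouse 3, SD mouse 1 and SD mouse 2 (97.4%) through RD mouse 2, CR mouse 1, SD mouse 3, RD mouse 1 and RD mouse 3 to YD mouse 2, YD mouse 1 and YD mouse 3 (32.8%). Of the pairs of a member and a list with an island, 82.3% fell on the first libraries of that order. The number of first libraries was the number of lists at that member, and equal shares in every library would give 51.5%. The 82.3% follows from the share of each library at members in each number of lists, so it says nothing about the order at single members. The islands of 398 members (10.9%) fell exactly on the first libraries, and those of 2250 (61.7%) did so with at most 1 exception. What the unequal shares of the libraries alone would give for these counts was not computed. The most frequent pattern, with 118 members, was an island in SD mice 1 and 2, CR mice 2 and 3 and the 3 HF mice, and there were 949 patterns in all. At members in 5 lists, HF mouse 1 had an island at 94% and SD mouse 1 at 32%, and at members in 10 lists they had one at 100% and 92%.

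**Figure D2:**
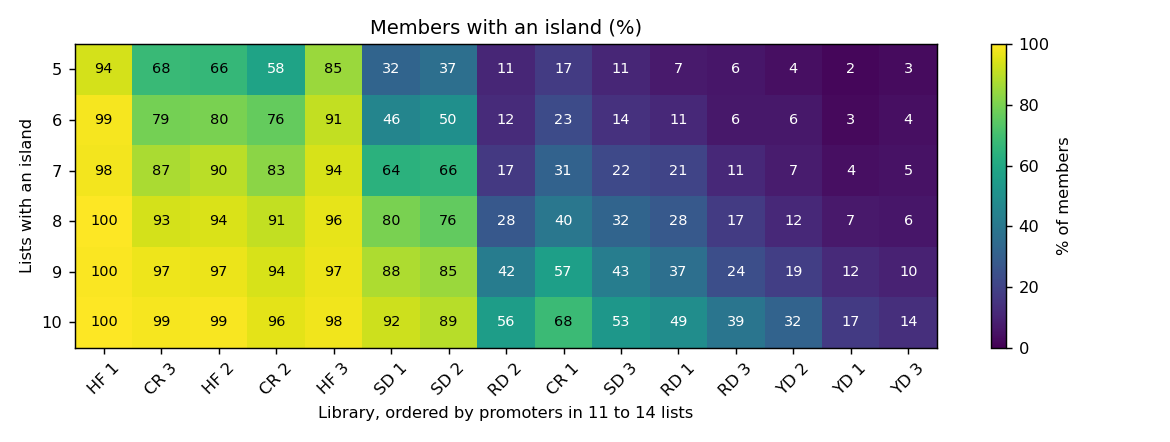
Share of members with an island in each library (percent, printed in each cell), by the number of lists that hold an island at the member (rows, 5 to 10) and by library in the order set by promoters in 11 to 14 lists (columns). The filled part of each row reaches farther to the right with every added list, and YD mouse 3 stays at 14% even at members in 10 lists.

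Member islands were shorter and lower in score than those of promoters in all 15 lists, and lay at a similar distance from the TSS. The median over members of the mean island width was 1600 bp, against 2000 bp at coding promoters in 11 to 14 lists and 2573 bp at those in all 15. The score was ranked among the islands of each list at coding promoters, and the median over members of the mean percentile was 29.3, against 53.0 and 76.6. Just outside and just inside the rule the values were close. The median percentile was 18.7 at the 511 coding promoters in 4 lists and 20.3 at the 521 in 5, and it was 37.9 at the 730 in 10 lists and 43.6 at the 783 in 11. The centre of the member islands lay at a median of 328.5 bp into the gene from the TSS, with quartiles at 5.5 and 653.5 bp, and at 377.5 bp for promoters in all 15 lists. An island covered the TSS itself in 79.8% of the pairs of member and list, 18.8% reached 1000 bp upstream and 53.5% reached 1000 bp downstream. At promoters in all 15 lists the values were 86.4%, 42.6% and 73.3%.

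**Figure D3:**
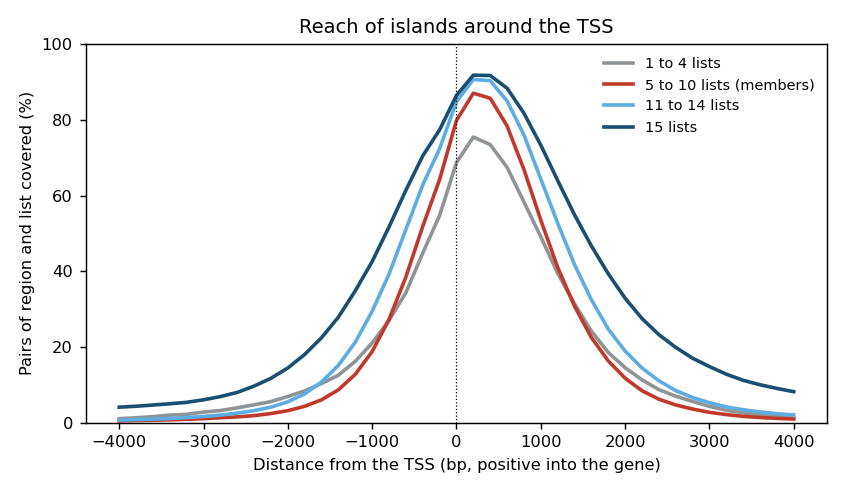
Share of pairs of region and list whose island covers a position (percent), by the distance of the position from the TSS (bp, positive into the gene), for coding promoters in 1 to 4, 5 to 10 (members), 11 to 14 and 15 lists. The curves of the members and of the promoters in all 15 lists both peak 200 bp into the gene, and the member curve stands at 18.8% at 1000 bp upstream against 42.6% for promoters in all 15 lists.

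At the edges of the rule, 3559 members had a TSS inside the merged region and 87 had one beside it. The nearest TSS was more than 800 bp away for 13 members, and 11 further regions in 5 to 10 lists had it beyond 1000 and within 1200 bp. No island of 4000 bp or more was present at 3255 members (89.3%), and 7 members had one in 4 lists. Only 2 coding promoters in 5 to 10 lists were left out for width, both with wide islands in 5 lists: that of Zcchc3 (chr2:152411401-152418000, 9 lists) and that of Foxa1, a pioneer factor of hepatocytes (chr12:57536201-57547200, 10 lists).

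The rank of the member scores within each list was compared between diets, with 1 median per library. The rule did not use the rank itself, but only members with an island in a list have one. Each library was therefore ranked on its own set of members, from 266 in YD mouse 3 to 3591 in HF mouse 1. The tests below are thus not independent of presence. The YD libraries had medians of 26.2, 34.1 and 39.1 on the percentile scale, with a mean of 33.1 ± 6.49 (n = 3), and the other 12 libraries had a mean of 49.7 ± 9.90. The difference was -16.6 points (two-sided exact permutation test, p = 0.0176), which did not pass after adjustment over the 5 diets (adjusted p = 0.0879). It was -18.3 points within the libraries named ChIP (3 against 7, exact p = 0.0417), and without CR mouse 3 it was -14.9 points and passed (exact permutation test, adjusted p = 0.0412). With lists of equal length, the 7825 highest-scoring islands of each and the members chosen anew, the differences of all 5 diets turned direction, to 3.56 points for YD (exact adjusted p = 0.346), -3.65 for HF, -0.47 for CR, -0.28 for SD and 0.85 for RD. The HF mean was 53.9 ± 9.29, which is 9.37 points above the rest (exact adjusted p = 0.374), but it was 8.52 points above and passed when islands were ranked only among those at coding promoters (exact adjusted p = 0.0440). A percentile rank depends by definition on the other islands of its list, and the part of this in the differences was not tested. The HF lists held 59.3%, 16.5% and 40.2% of the coding promoters in 1 to 4 lists, which had the lowest scores. The CR lists held 5.73%, 15.1% and 23.8% of them, and the YD lists 1.04%, 1.35% and 2.18%. The SD lists held 2.70% to 9.13% and the RD lists 2.67% to 11.3%. CR lay 10.98 points above the rest (exact adjusted p = 0.346), SD 0.64 points above (0.963) and RD -4.40 points from it (exact adjusted p = 0.712). Between pairs of diets, 3 mice against 3 cannot give an exact p under 0.1, and RD against YD reached that limit, with 9.75 points more in RD. The medians of the RD libraries, 43.6, 43.3 and 41.7, were closer together than those of any other diet (SD 1.01, n = 3).

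The share of CpG-rich promoters among the members lay close to that of all coding-promoter regions and below that of promoters in more lists. In the 1000 bases around the TSS, 1407 of the 3646 members (38.6%, exact 95% interval 37.0% to 40.2% for counting only) had a CpG ratio above 0.75 with a GC content above 55%, called high here, and 630 (17.3%) had a ratio below 0.48, called low. Over all 12566 coding-promoter regions the shares were 36.2% and 24.1%. High promoters made up 44.0% of the coding promoters in all 15 lists and 45.8% of those in 11 to 14, but 17.9% of those in 1 to 4 lists and 6.93% of the coding genes with no island. Low promoters made up 14.6%, 10.8%, 52.7% and 76.1% in the same order. The change was gradual within the members as well, from 31.3% high and 25.5% low at 5 lists to 42.2% high and 13.8% low at 10. Regions are not independent replicates, so no test was made across them.

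The CpG class of the members with an island varied between livers of 1 diet. Of the members with an island in CR mouse 1, 48.9% were high and 13.9% low, and in SD mouse 3, a library with fewer members but of the same order (1136 against 1521), 26.7% were high and 20.2% low. The YD libraries ranged from 23.3% to 37.7% high, the RD libraries from 30.5% to 42.9%, and the HF libraries, which held nearly all members, from 39.0% to 40.0%. In YD livers an island was present at 13.7% ± 2.08 of low members and 8.22% ± 5.25 of high ones (SD, n = 3 mice). In HF livers it was present at 86.6% ± 6.22 of low and 96.2% ± 4.23 of high members (n = 3).

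**Figure D4:**
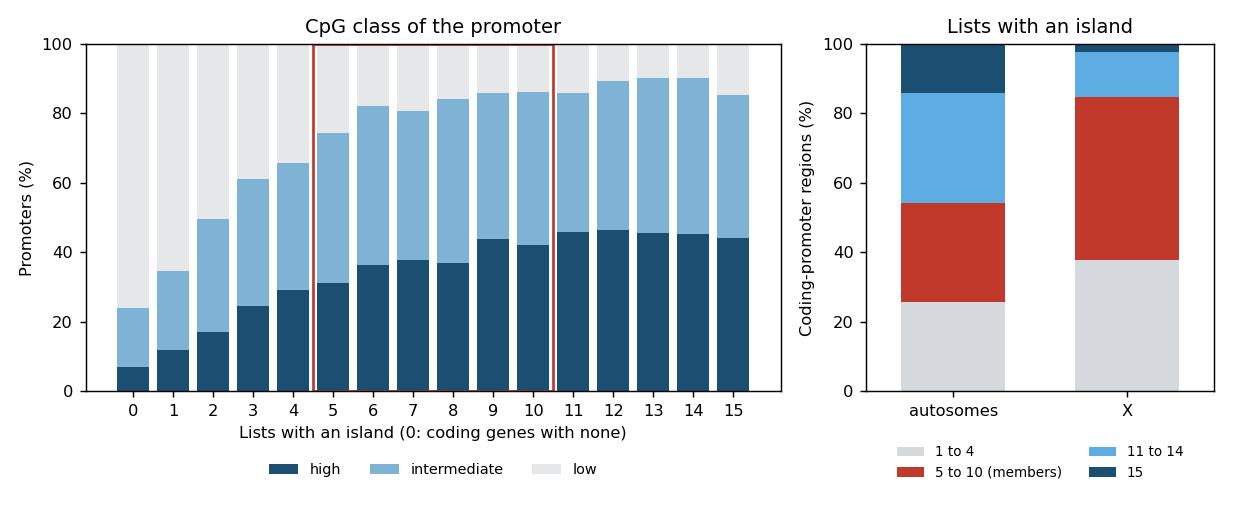
Left, CpG class of promoters (percent high, intermediate and low) by the number of lists with an island, from coding genes with none (0) to all 15, with the members between the red lines. Right, share of coding-promoter regions on the autosomes and on X (percent) by the number of lists, where members make up 28.5% and 47.1%.

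Short sequence motifs were counted next, since the rule used no sequence. The letters of each motif were searched on both strands in the 250 bases before to 50 after the TSS of 21277 coding promoters, 1 per region and 1 per gene with no island. The GC box bound by Sp factors (GGGCGG) was found at 65.5% of the members, 59.1% of the promoters in 15 lists and 44.2% of all coding promoters, and at 84.2% of the high members against 24.3% of the low ones. The TATA box (TATAAA) was found at 5.51% of the members against 12.3% of all, with 12.9% at the low members. The ETS motif (CCGGAAG) was found at 13.9% of the members, between 10.2% of all coding promoters and 21.8% of those in 15 lists, and stood at 14.1% of high members against 23.9% of high promoters in 15 lists. YY1 (AAGATGGC) showed the same order, with 4.14% of the members and 6.45% of promoters in 15 lists, against 3.03% of all. The hepatocyte motifs HNF4A (CAAAGTCCA) and HNF1 (GTTAATNA) were found at 0.466% and 1.34% of the members, against 0.451% and 2.35% of all.

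Coding TSSs on both strands, as at divergent gene pairs, lay at 263 members (7.21%), against 14.6% of the coding promoters in 11 to 14 lists and 23.5% of those in all 15. More than 1 coding gene lay at 349 members (9.57%). In all, 3902 coding genes had a TSS at a member, 17.9% of 21755, and for 3673 of them the member was also their most widely marked promoter. The other 229 had another promoter in 11 or more lists, 81 of them in all 15. Of the 231 members at such genes 24.7% were high and 31.2% low, against 39.5% and 16.3% of the others. Srebf1, Gpam and Bcl6, which encode a lipogenic transcription factor, a glycerol-3-phosphate acyltransferase and a repressor that shapes the male liver programme, are of this kind, each with a member promoter and another in all 15 lists.

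Members made up a larger share of the coding promoters on X than on any autosome. On X, 161 of 342 coding-promoter regions (47.1%) were members, against 28.5% of 12224 regions on the autosomes, where single chromosomes ranged from 23.8% to 35.0%. Only 8 X regions (2.34%) held an island in all 15 lists, against 14.02% on the autosomes (range 11.1% to 18.02%). The gap between X and autosomes differed with CpG class. Of high regions, 52.6% on X and 30.5% on the autosomes were members, of intermediate ones 53.5% and 31.4%, and of low ones 26.6% and 20.7%. Female cells carry an active and an inactive X, whose islands cannot be told apart in these lists. In all 15 libraries a smaller share of X genes than of autosomal genes had an island, from 3.48% against 19.3% in YD mouse 3 to 32.3% against 56.2% in HF mouse 1. Pdha1, the X-linked alpha subunit of pyruvate dehydrogenase, was such a member, with islands in SD mice 1 and 2, CR mice 2 and 3, the 3 HF mice and RD mouse 2 (chrX:160136201-160139800). The direction turned with the threshold. With the 7825 highest-scoring islands of every list, 28.2% of 188 X regions and 31.0% of autosomal ones were members, and with only the islands that scored at least their list's median 28.8% of 243 and 35.9% were.

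Gene lists were counted next, against 17.9% of all coding genes at a member. The circadian clock list had the largest share of the lists written by gene name, with 10 of 18 genes (55.6%). Among them were Npas2 and Clock, which form the activating dimer with Bmal1, the repressors Per1, Per2 and Per3, and the output factor Tef, which has 2 member promoters. The 8 other clock genes each had a promoter in 11 or more lists. Their 11 member regions held an island in 31 of 33 pairs of region and HF library, 27 of 33 for CR, 17 of 33 for SD, 12 of 33 for RD and 0 of 33 for YD. These were shares of 93.9%, 81.8%, 51.5%, 36.4% and 0%. Over all members the same diets held 93.9%, 71.6%, 56.8%, 25.3% and 9.99%. The 4 member regions for cholesterol synthesis and the 5 for integrin-linked kinase signalling likewise held no island in YD livers. The same was true of other short lists, such as H3K4 methyltransferases and demethylases, UDP-glucuronosyltransferases and histocompatibility genes. With so few regions and a YD share of 9.99% over all members, nothing is read from these absences.

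Per1 had the highest mean score percentile of all 3646 members, 83.9 over 9 lists (chr11:69094201-69101000). Its island stood at percentile 91.1, 96.6 and 97.7 in the CR livers, at 93.0, 75.1 and 81.0 in the HF livers, at 80.7 in SD mouse 1, and at 54.5 and 85.6 in RD mice 2 and 3. No island was listed in SD mice 2 and 3, RD mouse 1 or any YD mouse. Per2, chosen after its values were seen, had percentiles of 51.9, 84.7 and 94.9 in CR livers and 50.5, 7.12 and 57.6 in HF livers, with 47.5 and 53.4 in SD mice 1 and 2 and 8.19 in RD mouse 3. Clock had 82.6, 74.4 and 53.1 in HF livers, 84.1 and 78.5 in CR mice 1 and 2, 65.4 in SD mouse 1, and 82.4 and 54.2 in RD mice 1 and 3, and none in CR mouse 3. Per1 and Per2 had their highest percentiles in CR mouse 3, in whose list Clock had no island. CR mouse 3 has the longest list, and the median percentile of all member islands was 72.03 there, against 26.2 to 61.8 in the other libraries. The Noct promoter, that of a rhythmically expressed phosphatase, was next by mean percentile, at 87.6, 96.3 and 96.6 in CR livers, 61.6 and 63.3 in HF mice 1 and 3 and 84.2 in SD mouse 1, with no island elsewhere (chr3:51223601-51228400). The time of day at which each liver was taken is not given in the sources used here, and its part in these values was not tested.

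The other members of highest mean percentile were Kmt5b, a histone H4 lysine 20 methyltransferase with a mean percentile of 81.1 over 10 lists, Caskin2, a scaffold protein with 80.6 over 10 lists, and Pik3r1, the regulatory subunit of PI3-kinase, with 80.2 over 7 lists. Kmt5b stood between 70.0 and 90.0 in every list that held it. Pik3r1 stood at 91.6 and 98.2 in CR mice 2 and 3, at 89.5, 91.8 and 89.2 in the HF livers, and at 69.4 and 31.7 in SD mice 2 and 3. It had no island at this promoter in the corn livers, but another Pik3r1 promoter held an island in all 15 lists. The order depends on the ranking. Ranked only among islands at coding promoters, Per1 stayed first with a mean of 74.0, Pik3r1 (73.5) stood above Noct (71.4) and Caskin2 (71.0), and Kmt5b (66.5) fell below Nr4a3 (69.7) and Fmo5 (69.2). The middle 50% of the members lay between mean percentiles of 41.5 and 56.8.

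Immediate early genes, which respond to signals within minutes, had 7 of 19 at a member (36.8%): Egr1, Egr2, Atf3, Fosb, Klf4, Nr4a1 and Dusp1. Of the 19, 4 had their most widely marked promoter in 11 to 14 lists and 9 in all 15, Dusp1 among the latter. Egr2 stood at 60.8, 64.9 and 62.7 in SD livers, 73.9, 58.0 and 76.8 in HF livers, 41.8 and 77.9 in CR mice 2 and 3, and 51.0 in RD mouse 1, with no island in CR mouse 1, the YD livers or the other RD livers (chr10:67536001-67540200). Nr4a1, a nuclear receptor chosen after its values were seen, had its highest percentile, 89.2, in RD mouse 2 and an island in no CR liver. Its relative Nr4a3 stood at 88.7, 90.8 and 52.1 in SD, 49.2, 78.8 and 86.0 in CR, 91.0, 90.1 and 97.9 in HF livers and 76.2 in YD mouse 2, and had no island in RD livers (chr4:48042001-48047400).

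Genes of hepatocyte function were mostly marked in more lists than the members, with 28 of 33 in 11 or more lists and 4 at a member. Defining promoters of the labelled tissue were thus mostly outside the members, and the 4 at members were all low in CpG. Pck1 stood at 51.2, 83.3 and 93.1 in SD livers, 48.5, 81.6 and 70.4 in HF livers, 73.2 and 96.9 in CR mice 2 and 3 and 93.2 in YD mouse 1, with no island in CR mouse 1 or the RD livers (chr2:173152601-173157600). Alb stood at 84.4 in SD mouse 3, 71.3, 65.6 and 84.4 in HF livers, 68.0, 49.4 and 63.1 in YD livers and 80 in RD mouse 1, with no island in CR livers or in SD mice 1 and 2 (chr5:90460601-90466000). Albumin is the most abundant secreted product of hepatocytes, and its promoter was 1 of 8 members with an island in all 3 YD livers. Cyp7a1, the rate-limiting enzyme of bile acid synthesis, stood at 91.1 in CR mouse 3 and 76.4 in RD mouse 1, with 43.3 and 68.2 in SD mice 1 and 3, 53.6 in CR mouse 2, 33.1 in HF mouse 1 and 33.9 in RD mouse 2. Cyp3a11, a drug-metabolizing P450 chosen after its values were seen, was highest in CR mice 1 and 3 at 94.4 and 90.1, and had islands in all 3 RD livers and only 1 HF liver.

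**Figure D5:**
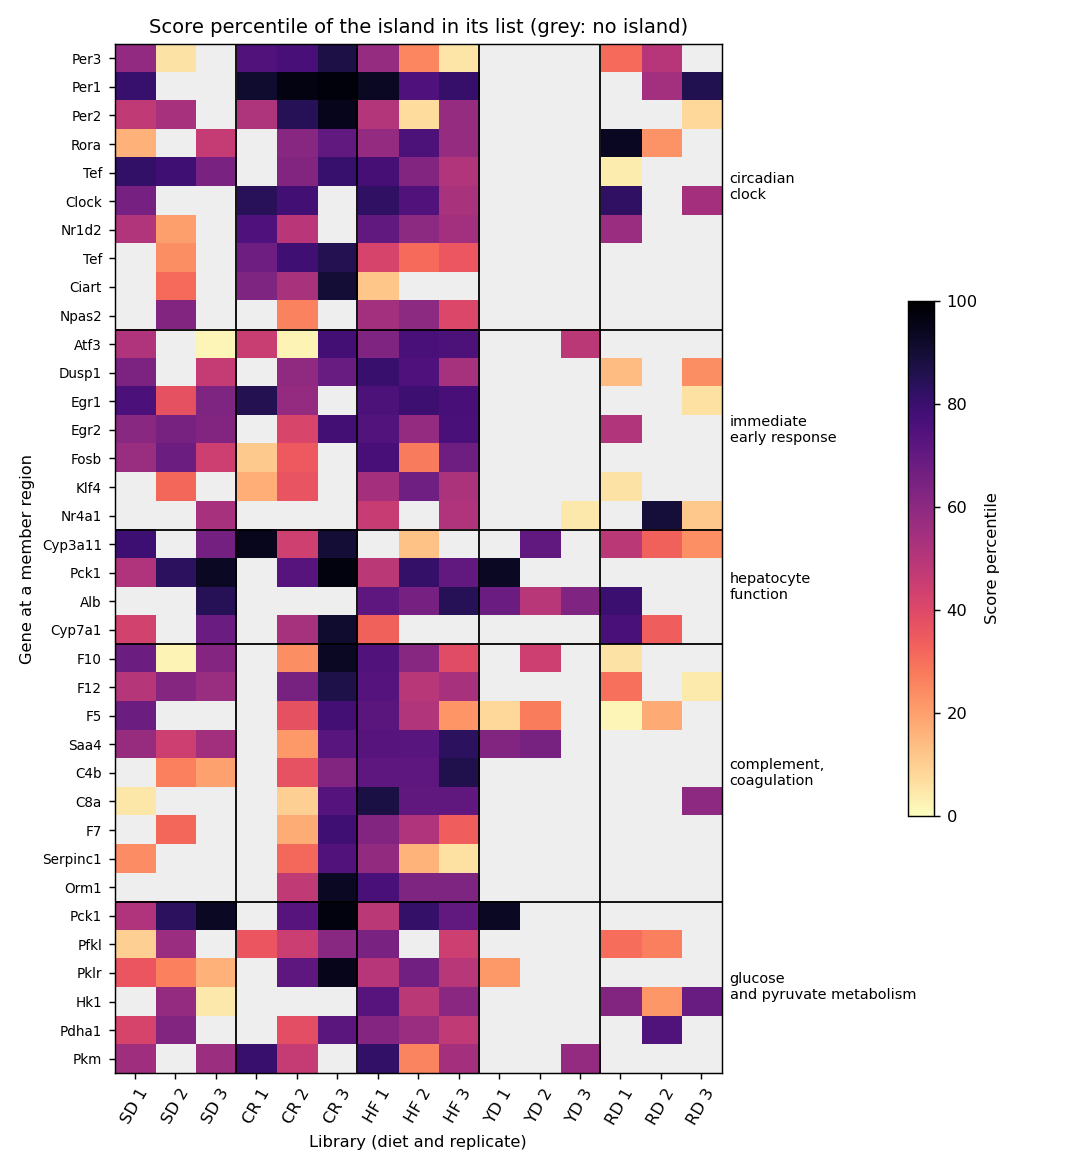
Percentile of the island score in its list (colour, 0 to 100) for genes of 5 lists at member regions (rows, 1 clock region not shown) in the 15 libraries (columns, by diet), with grey where the list has no island. The clock block is empty in the YD columns, and the complement and coagulation block is filled in CR mice 2 and 3 and the HF columns and empty in CR mouse 1.

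Secreted plasma proteins formed a second group of CpG-poor members. Of 30 genes for complement, coagulation and the acute phase, 9 were at a member (30%), all with low CpG promoters: the clotting factors F5, F7, F10 and F12, antithrombin (Serpinc1), the complement genes C4b and C8a, and the acute phase genes Orm1 and Saa4. Of the 30, 10 had their most widely marked promoter in 11 to 14 lists and 5 in all 15. Serpinc1 also has a promoter in more lists than its member. The 9 member regions of this list held an island in all 27 pairs with HF libraries and in all 9 for CR mice 2 and 3. They held none in CR mouse 1, which held 41.7% of all members and 33.5% of the low ones. CR mouse 1 also had the fewest reads of all libraries (5589269), and the part of depth was not tested. Orm1 stood at 76.8, 63.4 and 63.5 in HF livers and 47.5 and 93.3 in CR mice 2 and 3, and had no island in SD or corn livers (chr4:63343801-63347800). Enzymes of serine, glycine and methyl-group metabolism had 7 of 25 genes at a member (28.0%). Their 8 regions all held an island in CR mouse 3 and none in CR mouse 1. Gcsh, the lipoyl carrier of the glycine cleavage system, stood at 75.8, 69.2 and 70.1 in SD, 63.0 and 92.7 in CR mice 2 and 3, 70.1, 83.8 and 62.3 in HF livers, 70.2 in YD mouse 2 and 61.4 in RD mouse 2 (chr8:116990801-116994200). Grhpr, glyoxylate reductase, stood at 92.5 and 94.2 in CR mice 2 and 3 and at 74.1 in YD mouse 1.

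In glucose metabolism 6 of 20 genes were at a member (30%), namely Pck1, Pklr, Pkm, Pfkl, Hk1 and Pdha1, and in the P450 list 9 of 29 (31.0%). Pklr, the liver pyruvate kinase, was chosen after its values were seen and had its highest percentile, 95.3, in CR mouse 3. The male-biased Cyp2d9 stood at 85.7, 47.2 and 42.6 in SD livers, 84.4 and 61.0 in CR mice 1 and 3, and 47.5 and 73.3 in HF mice 1 and 2. In the corn livers it stood at 83.7 in YD mouse 3 and at 96.0 and 64.5 in RD mice 2 and 3. The near copies of Cyp2d9 in the same cluster leave the reads that each received uncertain. Fatty acid and triglyceride synthesis had 5 of 20, with Scd1, the stearoyl-CoA desaturase, at 7 lists. Cholesterol synthesis had 3 of 20, and fatty acid oxidation had Acadvl alone, whose promoter it shares with the neuronal gene Dlg4. For cholesterol synthesis the other 17 of 20 genes had a promoter in 11 or more lists.

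Markers of the other liver cell types were counted in the same way. Sinusoidal endothelium had 7 of 20 markers at a member (35.0%), among them Egfl7, Erg and Gata4, stellate cells and fibroblasts 4 of 20 with Nt5e, Hgf and Hand2, and Kupffer cells and macrophages 2 of 20, Mrc1 and Cd68. Cholangiocytes had Sox9 alone of 16, lymphocytes Ptprc alone of 21, and neutrophils and erythroid cells Klf1 alone of 12. Most markers outside the members were marked in fewer lists, unlike the hepatocyte genes. Markers with no island and with at most 1 to 4 lists numbered 1 and 10 for endothelium, 5 and 10 for stellate cells and fibroblasts, and 5 and 11 for Kupffer cells and macrophages. They numbered 9 and 4 for cholangiocytes and 17 and 3 for lymphocytes. Gata4 has another promoter in all 15 lists. The Egfl7 island was 9000 bp wide in HF mouse 1 and 1200 bp in SD mouse 2 and RD mouse 1. Cd68 lies in the merged region of Mpdu1, and its island cannot be assigned to either gene. Interferon response had 4 of 24 at a member (16.7%, against 17.9% of all coding genes), with Usp18, Irf7 and Gbp2 first by score. Its 4 regions held no island in YD livers, which held one at only 9.99% of all members.

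Among families, 126 of 394 Zfp genes (32.0%) lay at members, 16 of 54 clustered protocadherins (29.6%) and 17 of 78 mitochondrial ribosomal protein genes (21.8%). Of 80 cytosolic ribosomal protein genes 6 (7.5%) did, and 73 had a promoter in 11 or more lists. Olfactory receptors had 20 of 1134 genes at 18 members, all with low CpG promoters. Of these 18 members, 17 held an island in CR mouse 3 and 16 in RD mouse 2, the longest lists, but only 2 in HF mouse 3, which held 94.0% of all members. Receptor genes lie in clusters of near copies, so reads that map to several of them may be placed at the wrong one.

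In all, 107 members (2.93%) had at most 50% of their islands in the first libraries of the order, a limit set after the values were seen. Low CpG promoters made up 60 of them (56.1%, against 17.3% of all members), and 13 were olfactory or vomeronasal receptor genes. Alb led them by mean percentile, followed by Dio1, which was likewise chosen after its values were seen and encodes the liver deiodinase that activates thyroid hormone. Dio1 stood at 89.5, 88.7 and 94.6 in HF livers, 62.0, 60.2 and 18.3 in YD livers, 77.3 and 61.5 in RD mice 1 and 3 and 68.9 in SD mouse 2, with no island in any CR liver (chr4:107302601-107307600). Alb and Dio1 were the only members with an island in all 3 YD livers and in no CR liver.

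A gain was an island in 2 or 3 mice of a diet with none in the reference mice, and a loss was the reverse. Beside each count stand the shares over all 33781 merged regions and over the 11106 coding promoters in 2 or more lists, in that order. Because presence chose the members, nothing is read from the difference between a count and that share, and no single region can reach an exact p under 0.1. Against SD, 239 members were gained in CR (6.56%, against 5.81% and 4.02%) and 39 lost (1.07%, against 1.45% and 0.603%). In HF 281 were gained (7.71%, against 6.4% and 10.2%) and 1 lost (0.0274%, against 1.71% and 0.126%). In YD 6 were gained (0.165%, against 0.74% and 0.09%) and 1607 lost (44.1%, against 8.77% and 17.6%). In RD 34 were gained (0.933%, against 6.66% and 0.603%) and 797 lost (21.9%, against 3.62% and 7.56%). In RD against YD 437 were gained (12.0%, against 10.9% and 7.08%) and 33 lost (0.905%, against 0.477% and 0.423%). The 4 comparisons with SD share its 3 libraries. Without SD mouse 1 or SD mouse 2, with members chosen anew, the losses in YD were 722 and 766, the losses in RD 294 and 302, the gains in CR 571 and 590 and the gains in HF 639 and 670. Without CR mouse 2 or 3 the gains in CR were 69 and 66. Without RD mouse 1 or 2 the losses in RD were 1236 and 1340, and the gains of RD against YD 230 and 224, while without YD mouse 2 the latter were 669. With the 7825 highest-scoring islands of every list the balance of RD against YD turned, to 189 gains and 223 losses, and the losses in YD against SD were 730.

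The members with an island in 3 of 3 mice of a diet and none of the other were fewer. Beside each count stand its share of the members and the share over the coding promoters in 2 or more lists. Nothing is read from the difference between these shares either. In CR against SD 64 were gained (1.76%, against 0.639% of coding promoters) and 2 lost (0.0549%, against 0.018%). Ppard, a nuclear receptor for fatty acids, Acot4, a peroxisomal thioesterase, and Usp2, a deubiquitinase, led the gains by mean percentile. Usp2 stood at 61.7, 77.0 and 95.4 in CR livers and had no island in SD, YD or RD livers (chr9:44083801-44087800). The 2 lost were Lipc, hepatic lipase, at 75.5, 52.9 and 56.7 in SD livers (chr9:70930401-70935200), and Hand2, a stellate cell transcription factor. In HF against SD 228 were gained (6.25%, against 3.84%), led by Orm1, Ppard and Serping1, and 1 lost (0.0274%, against 0.009%), the X-linked Ssxb10.

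In YD against SD 434 were lost (11.9%, against 6.22%), led by Caskin2, Fmo5 and Apaf1, and 1 gained (0.0274%, against 0.009%). The 1 gained was a CpG-poor promoter of Cdc23, a gene with another promoter in all 15 lists. Fmo5, a flavin monooxygenase of the liver, stood at 88.5, 57.8 and 81.4 in SD livers, at 90.0, 77.2 and 97.9 in CR, at 78.6, 90.0 and 60.4 in HF and at 74.2 in RD mouse 2 (chr3:97627801-97632400). In RD against SD 200 were lost (5.49%, against 1.91%), led by Nr4a3, Pck1 and Stip1, and 8 gained (0.219%, against 0.09%), led by Serping1, Cdkl2 and Slc25a38. Stip1, the co-chaperone that joins Hsp70 to Hsp90, had an island in each of the 9 livers on SD, CR and HF, between 61.6 and 86.8, and in none of the 6 corn livers (chr19:7038201-7041600). Serping1, the C1 inhibitor, stood at 51.4 in YD mouse 3, 45.4, 66.4 and 69.6 in RD livers and at up to 86.4 in CR and HF livers, and had no island in SD livers (chr2:84772201-84777200). In RD against YD 37 were gained (1.01%, against 1.92%), led by Ptpn9, Clcn6 and Tns3. The 2 lost (0.0549%, against 0.054%) were Serpina3k, a liver serine protease inhibitor, and Gm37388. Serpina3k stood at 85.3, 7.67 and 4.53 in YD livers, so that 2 of the 3 islands behind this call were near the bottom of their lists (chr12:104337801-104342800).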

How the data were processed

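Livers of 15 mice, 3 on each of 5 diets, were profiled by H3K4me3 PAT-ChIP-seq. As the study's methods state, the authors aligned 50 bp single reads to mm10 with BWA, used SAMtools to keep non-duplicate reads of MAPQ 1 or more on chromosomes 1 to 19 and X, and called islands in each library with SICER2. The deposited score, 1 per island and 1 list per library with no pooling, is a sum over 200-bp windows with no scaling across libraries, and only its percentile rank within its list was used. Versions of the authors' tools are not given in the sources used here. Reads per library (5589269 to 15449854) were recovered from the scores of single-window islands, and intervals cover counting error only.

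Overlapping or touching islands of the 15 lists were merged, and TSSs were taken from GENCODE on mm10. CpG class was computed in 500 bases on each side of the TSS, and promoter sequences came from RefSeq on GRCm38.p6, where 3050 of the 3902 genes at members had one. Presence chose the members and was not tested. The median rank per library was compared between diets by two-sided exact permutation tests, adjusted by Benjamini-Hochberg over 5 diets. Python 3.11.15, numpy 2.4.6, pandas 2.3.3, scipy 1.17.1 and pysam 0.24.0 were used, and the scripts were tested on simulated data.

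The members and gene lists were chosen with earlier results of these data known. Named genes are up to 3 genes per list and per 3 of 3 against 0 comparison by mean percentile, plus the 5 highest members, and others are named as members of a list or said to be chosen after their values were seen. Library names have the form PATChIP for CR mice 1 and 2, HF mice 2 and 3 and RD mouse 1 and ChIP for the other 10, and what the forms stand for is not given in the sources used here. The values of 1 clock gene are not reported here.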

Additional observations from a re-analysis of the deposited data

How the results depend on the processing

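Of 732 alternative values, 590 stayed on the same side and within the stated margin, 2 newly passed a threshold, 15 turned direction and 125 moved further. The cause was not tested for any of them. With the 7825 highest-scoring islands of every list, 45% of the members were high in CpG, 67.3% held a GC box, the X excess was -2.81 points, and HF and YD livers held 81.0% and 26.7% of the members. The gains and losses were then 157 and 78 for CR, 180 and 32 for HF, 39 and 730 for YD, and 189 and 223 for RD against YD. The score differences of all 5 diets turned, to -0.28 (SD), -0.47 (CR), -3.65 (HF), 3.56 (YD) and 0.85 points (RD). With islands at or above the median score, 44.2% were high, the X excess was -7.13, HF livers held 86.5%, the losses were 22 (CR) and 11 (HF), and the score differences turned to -1.49 (SD) and 0.35 (RD).

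The losses in HF were 2 with islands of at least 600 bp, 2 with a TSS within 3 kb and 0 on chromosomes 1 to 19, and the gains in YD were 13 within 3 kb and 3 with basic transcripts only, where 40.4% were high and 67.2% held a GC box. In the window from 250 bases before to 50 after the TSS 48.5% were high. With 6 to 9 lists there were 2396 members, an X excess of 12.9, 104 gains and 15 losses in CR, 113 gains in HF, and 205 gains and 19 losses of RD against YD. With 3 of 3 mice against none the gains and losses were 64 and 2 (CR), 1 and 434 (YD), 8 and 200 (RD), and 37 and 2 (RD against YD). The score differences became -1.14 (SD) and 8.52 points (HF, exact permutation test, adjusted p = 0.0440) when ranked at coding promoters only, -0.56 (SD) with means per library, and -1.07 (CR) within the PATChIP names.

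Leaving out each library in turn gave 3777 to 4230 members, 38.5% to 41.3% high, 64.9% to 66.0% with a GC box, an X excess of 9.70 to 19.7, and 8 to 10 clock and 4 to 5 hepatocyte genes. The mean shares ran from 57.0% to 73.2% (SD), 69.8% to 89.0% (CR), 94.1% to 97.4% (HF), 8.61% to 14.9% (YD) and 26.3% to 34.9% (RD). Gains ran from 66 to 590 (CR), 106 to 670 (HF), 2 to 33 (YD), 11 to 124 (RD) and 224 to 669 (RD against YD), and losses from 9 to 151, 1 to 12, 722 to 2133, 294 to 1340 and 12 to 113. Score differences ran from -3.87 to 5.09 (SD), 2.42 to 14.4 (CR), 6.30 to 14.7 (HF), -19.6 to -13.9 (YD) and -5.50 to -2.04 (RD), and between pairs from -0.47 to 12.4 (CR against SD), 2.02 to 11.9 (HF), -17.3 to -9.28 (YD), -8.25 to 0.95 (RD) and 7.61 to 12.8 (RD against YD). The SD value turned without SD mouse 1 (-3.87), YD mouse 1 (-0.72) or YD mouse 2 (-1.11), RD against SD without SD mouse 1 (0.95), and CR against SD without CR mouse 3 (-0.47). The YD value without CR mouse 3 was -14.9 (exact permutation test, adjusted p = 0.0412).

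The replicate numbers name different animals. With the replicate number as a block the YD difference was -16.6 points (exact permutation test, p = 0.048, adjusted 0.240), and no call changed. Same-numbered libraries of different diets had correlations of -0.052 to 0.0733 over 30 pairs, and 6 of 15 libraries correlated best with their own number, so the numbers were not taken as pairs.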
